A study of Mus musculus with 9 samples.

Results

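The small leucine-rich proteoglycans were examined in bone marrow mesenchymal stromal cells, fibroblast-like cells that support blood formation. The 10 genes were the rows of the deposited table with the symbols Dcn, Bgn, Lum, Fmod, Ogn, Omd, Aspn, Prelp, Kera and Epyc, out of 30579 genes in all. The rule is a list of family symbols and uses no measured value, but the family was picked with earlier results of these data known. Cells were sorted by flow cytometry from the long bones of mice of 3 groups, with 3 libraries in each, and RNA was sequenced after SMART-Seq v4 amplification. The mice labelled aged Thbs1 knockout were 18 months old, the aged controls were 18 months old and the young controls were 3 months old. In all groups an antibody to VE-cadherin, which marks endothelial cells, was injected shortly before death. The labels give neither the strain, the knockout allele, the sort gates nor whether libraries of 1 group stem from different animals. The p-values therefore measure only the spread between these libraries, which may be technical.

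Small leucine-rich proteoglycans are secreted proteins with a curved core of leucine-rich repeats, most of which carry chondroitin, dermatan or keratan sulfate chains. They bind fibrillar collagens and set the width and spacing of the fibrils, and several of them bind growth factors of the TGF-beta family. Skeletal stromal cells, osteoblasts, chondrocytes and tendon cells are known for making different mixtures of them, and several of the genes lie side by side in the genome. By protein sequence decorin, biglycan and asporin form class I, lumican, fibromodulin, Prelp, keratocan and osteomodulin class II, and osteoglycin and epiphycan class III.

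Values were FPKM, fragments per kilobase of transcript and scaled to library size, so levels of different genes can be compared per length. Estimated depth was 17.7 to 27.5 M reads (M, mega) a library, and 3 reads came to between 0.0179 and 0.0754 FPKM for these genes. The targeted gene Thbs1, which encodes the matrix protein thrombospondin-1, was at 24.28, 44.55 and 37.05 FPKM in the labelled-knockout libraries, 35.56, 41.89 and 36.85 FPKM in aged controls and 74.98, 73.11 and 58.03 FPKM in young controls. Labelled-knockout libraries and aged controls overlapped (log2 difference -0.15, SE 0.26, limma adjusted p = 0.801), so the group is called by its label throughout, and which part of Thbs1 the allele removes is not given. The stromal markers Cxcl12 and Lepr were high in all 9 libraries, at 2873.19 to 6044.06 FPKM and 233.23 to 672.93 FPKM. Replicate 2 of the labelled knockouts stood apart, with a correlation to the other libraries of 0.738 to 0.811 across genes, whereas each of the others had a correlation of at least 0.937 with some library. At an estimated 18.12 M reads, replicate 2 held 13503 genes above 0, against 16557 to 18382 in the other libraries. The part of this in its low values was not tested. Immunoglobulin genes took an estimated 0.163%, 19.2% and 2.36% of reads in the labelled-knockout libraries, 4.27% to 31.9% in aged controls and 0.00542% to 0.171% in young controls. Since FPKM is relative to a library's total, such genes lower the values of the rest.

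RefSeq windows on GRCm38.p6 were found for 8 of the 10 genes, and Dcn and Lum had none. The 250 bases before the RefSeq start are printed for Bgn at chrX:73483351-73483600, Omd at chr13:49582212-49582461, Ogn at chr13:49607765-49608014, Fmod at chr1:134037004-134037253 and Epyc at chr10:97643818-97644067, all on the plus strand. These 5 are shown because the results turn on them: Bgn and Omd for age, Ogn for its low level in the labelled knockouts, Fmod and Epyc for their high levels in labelled-knockout replicates 1 and 3. Capitals mark matches, on either strand, to any of 5 motifs. These were the TATA box with the letters TATAAA, the RUNX core with the letters TGTGGT, the SOX core with the letters AACAAT, the GC box with the letters GGGCGG and the AP-1 site with the letters TGANTCA.
Bgn: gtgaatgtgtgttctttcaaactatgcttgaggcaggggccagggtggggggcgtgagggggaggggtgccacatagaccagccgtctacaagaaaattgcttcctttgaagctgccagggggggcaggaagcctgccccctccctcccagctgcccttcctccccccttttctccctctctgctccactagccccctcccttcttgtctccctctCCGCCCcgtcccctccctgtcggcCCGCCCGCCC
Omd: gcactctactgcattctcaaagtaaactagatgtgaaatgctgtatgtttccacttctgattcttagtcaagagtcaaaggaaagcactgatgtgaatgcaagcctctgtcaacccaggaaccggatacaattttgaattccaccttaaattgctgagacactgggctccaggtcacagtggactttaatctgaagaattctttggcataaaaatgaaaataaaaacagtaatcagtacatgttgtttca
Ogn: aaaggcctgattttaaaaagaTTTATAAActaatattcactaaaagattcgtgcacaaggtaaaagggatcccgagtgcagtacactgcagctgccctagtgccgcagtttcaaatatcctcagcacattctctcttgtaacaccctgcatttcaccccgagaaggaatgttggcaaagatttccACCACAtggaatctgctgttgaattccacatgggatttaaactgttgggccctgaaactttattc
Fmod: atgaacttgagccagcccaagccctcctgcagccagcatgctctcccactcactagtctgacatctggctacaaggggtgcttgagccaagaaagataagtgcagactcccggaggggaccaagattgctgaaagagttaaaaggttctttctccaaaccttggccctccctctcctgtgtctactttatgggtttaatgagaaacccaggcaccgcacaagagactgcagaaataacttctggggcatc
Epyc: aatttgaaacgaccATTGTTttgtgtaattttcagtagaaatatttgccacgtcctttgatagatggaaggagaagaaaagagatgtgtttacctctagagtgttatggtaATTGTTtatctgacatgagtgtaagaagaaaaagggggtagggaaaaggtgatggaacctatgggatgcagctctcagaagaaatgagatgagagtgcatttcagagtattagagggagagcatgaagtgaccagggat

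The Bgn window was the richest in G and C, at 64.4% against a median of 52.4% over all windows, and held 3 GC boxes, of which the last 2 overlap by 2 bases. A GC box was present in 32.7% of the 32851 windows of this length. The Ogn window held 2 TATA box matches that overlap each other at bases -229 to -222 before the start, and 1 RUNX core at bases -65 to -60; these motifs were in 12.4% and 14.1% of all windows. The Epyc window held 2 SOX cores, a motif present in 9.42% of all windows, and SOX cores also lay in the second Epyc window and in the windows of Kera, Prelp and Aspn. No AP-1 match, present in 6.75% of all windows, lay in any member's window, and the Omd and Fmod windows held none of the 5 motifs. These matches describe letters and not bound sites.

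In every group biglycan, decorin and Prelp made up most of the family, and the rarer members differed by group. Summed over the 10 genes, the family came to 1311 ± 515 FPKM in labelled-knockout libraries, 748 ± 170 FPKM in aged controls and 1150 ± 77.1 FPKM in young controls (SD, n = 3 each). In labelled-knockout libraries the order of mean levels was Bgn at 372 FPKM, Prelp at 367 FPKM, Dcn at 261 FPKM, Lum at 145 FPKM, Fmod at 96.9 FPKM, Ogn at 38.5 FPKM, Epyc at 11.3 FPKM, Aspn at 10.5 FPKM, Omd at 6.13 FPKM and Kera at 2.86 FPKM. Among neighbours in that order the ranges of the 3 libraries were apart only between Ogn and Epyc. In aged controls the order was Bgn at 205 FPKM, Dcn at 192 FPKM, Prelp at 179 FPKM, Lum at 91.2 FPKM, Ogn at 67.7 FPKM, Aspn at 4.68 FPKM, Fmod at 4.58 FPKM and Omd at 3.72 FPKM, with Epyc and Kera at or near 0. There the ranges were apart between Prelp and Lum, between Ogn and Aspn and between Omd and Epyc, and the first 3 genes overlapped one another. In young controls Bgn led at 414 FPKM, followed by Prelp at 302 FPKM, Dcn at 180 FPKM, Lum at 120 FPKM, Ogn at 96.3 FPKM, Fmod at 19.9 FPKM, Omd at 11.8 FPKM, Aspn at 5.64 FPKM, Epyc at 1.30 FPKM and Kera at 0.20 FPKM. The pairs Prelp and Dcn, Dcn and Lum, Ogn and Fmod, Omd and Aspn, and Aspn and Epyc did not overlap in young controls. Ranked among all 30579 genes by group mean, Bgn stood at 96 in labelled-knockout libraries, 188 in aged controls and 78 in young controls. Over all 9 libraries the highest value was 2.35 times the lowest for Dcn and 2.66 times for Bgn, against 104.9 times for Fmod.

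**Figure D1:**
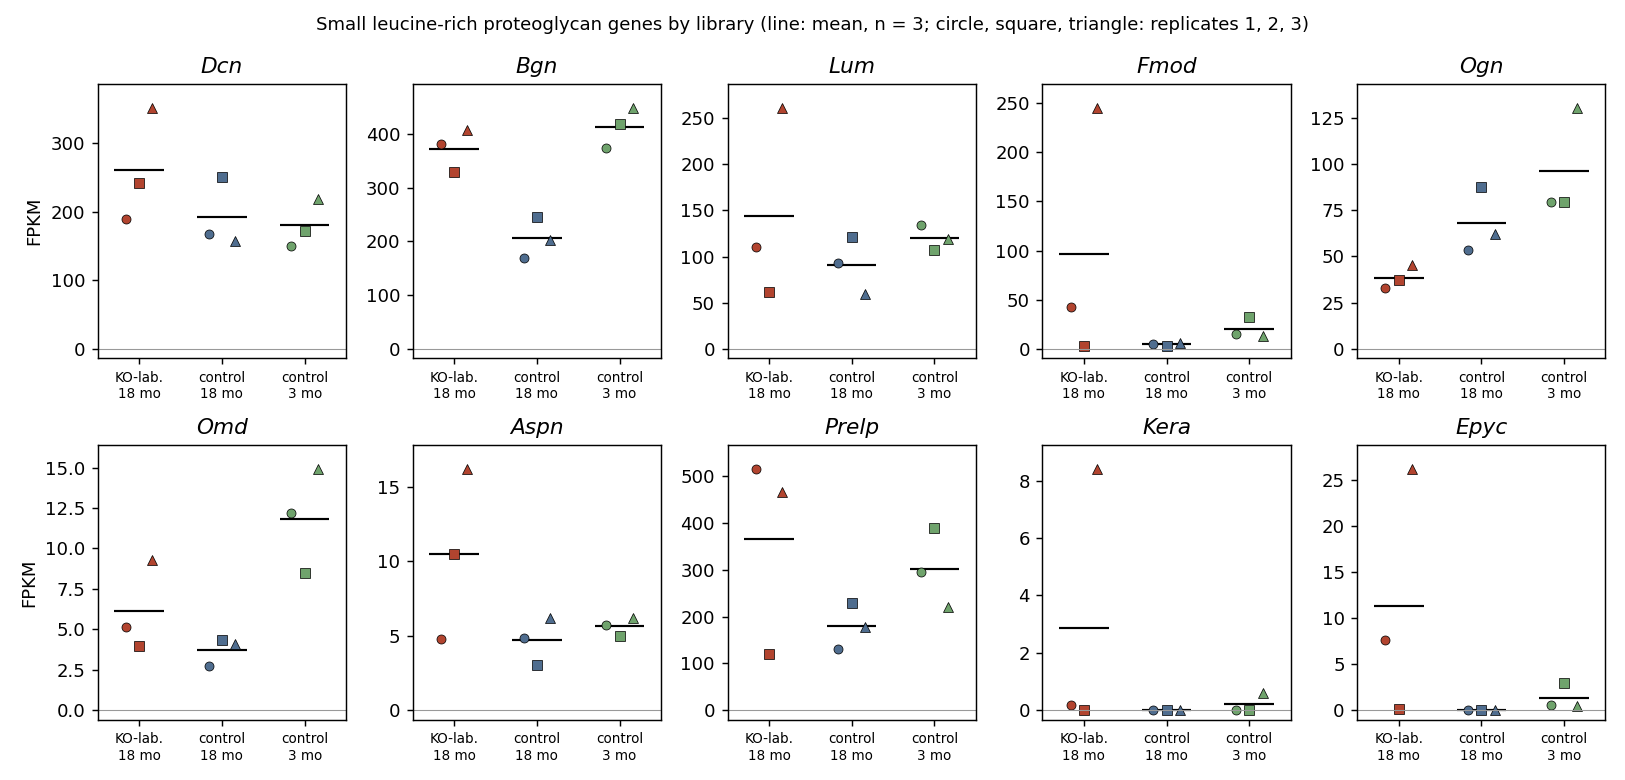
FPKM of each of the 10 genes (vertical axis, a scale of its own for each gene) in the 3 labelled-knockout libraries (KO-lab.), 3 aged controls and 3 young controls; symbols stand for replicates 1 to 3 and the line for the group mean. Bgn in aged controls lies at or below 244.42 FPKM, under all libraries of the other groups, and Ogn in labelled-knockout libraries lies at or below 45.20 FPKM, under all controls.

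Age was tested by setting aged against young controls. Biglycan and osteomodulin fell and no member rose. Bgn, a collagen-binding proteoglycan with chondroitin or dermatan sulfate chains that is needed for normal bone mass in mice, was at 168.82, 244.42 and 202.95 FPKM in aged controls, against 373.23, 418.74 and 448.52 FPKM in young controls. Every aged control was below every young control. On log2(FPKM + 1) the difference was -1.02 (SE 0.23, 95% confidence interval -1.54 to -0.50, limma adjusted p = 0.0450). Omd, the keratan sulfate proteoglycan osteomodulin of mineralised matrix and osteoblasts, was at 2.71, 4.36 and 4.08 FPKM in aged controls, against 12.16, 8.47 and 14.90 FPKM in young controls. These groups were also apart, with a log2 difference of -1.43 (SE 0.32, 95% confidence interval -2.16 to -0.70, limma adjusted p = 0.0445).

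Those calls, 2 of 9 tested members lower and 0 higher, compare with 1.47% of all 11988 tested genes called lower and 2.57% called higher (4.04% in either direction). The same 2 members, and 21.7% of all tested genes, had an unadjusted p under 0.05. Both lie close to the threshold of 0.05, and both were lost without any one of the 6 control libraries or without labelled-knockout replicate 1; without labelled-knockout replicate 3 only the call of Omd was kept. Scaling by median-ratio size factors gave Bgn -0.68 (adjusted p = 0.125) and Omd -1.14 (adjusted p = 0.0701), and leaving out the immunoglobulin genes gave -0.70 (adjusted p = 0.104) and -1.17 (adjusted p = 0.0764). The median over all tested genes was -0.28 as deposited and -0.0019 after median-ratio scaling, and the members' median was -0.75 and -0.41. The split of all calls moved with it, to 68 lower and 358 higher genes after median-ratio scaling and 80 lower and 377 higher without immunoglobulin genes, against 176 lower and 308 higher as deposited. The Bgn to Dcn ratio within a library does not depend on scaling. Its test was not planned, and it sets Bgn, already called lower, over Dcn, which did not fall. The ratio is therefore no independent support for the Bgn call. It was 1.01, 0.978 and 1.29 in aged controls, against 2.49, 2.44 and 2.05 in young controls, without overlap (log2 ratio 0.12 ± 0.22 against 1.21 ± 0.15, SD, n = 3 each; exact two-sided permutation p = 0.1, the smallest that 3 against 3 allow). In bulk RNA, fewer cells of a type and less RNA per cell cannot be told apart. Osteoblast markers summed to 906.35 to 1745.34 FPKM in aged controls and 5340.72 to 6369.80 FPKM in young controls, with 3 of 8 lower. Marrow reticular stroma markers summed to 4147.20 to 6057.71 FPKM in aged controls and 8104.30 to 9212.50 FPKM in young controls, with 1 of 8 lower, the adipokine gene Adipoq. Chondrocyte markers summed to 41.68 to 64.21 FPKM in aged controls and 139.97 to 346.96 FPKM in young controls, with 0 of 8 passing and a median log2 difference of -2.02. Leukocyte and plasma cell markers ran the other way: pan-leukocyte markers summed to 605.43 to 1378.40 FPKM in aged controls and 56.86 to 98.98 FPKM in young controls, with 8 of 10 higher, and 4 of 8 plasma cell markers were higher. The part of these cells in the lower Bgn and Omd was not tested.

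Of the other class I members, Dcn, the collagen and TGF-beta binding decorin, was at 167.55, 250.02 and 157.31 FPKM in aged controls and 149.96, 171.69 and 218.73 FPKM in young controls. The groups overlapped and the log2 difference was 0.075 (95% confidence interval -0.61 to 0.77, limma adjusted p = 0.915). It was -0.047 without young replicate 1 and -0.13 without aged replicate 2. Aspn, asporin, which lacks sulfated chains and binds TGF-beta, was low in both groups, between 3.03 and 6.18 FPKM in aged controls and at most 6.21 FPKM in young controls (log2 difference -0.26, SE 0.39, adjusted p = 0.732). Among class II members, Fmod, fibromodulin, which guides collagen cross-linking in tendon and cartilage, was at 4.85, 3.27 and 5.62 FPKM in aged controls, against 14.94, 32.06 and 12.67 FPKM in young controls. These ranges were apart, yet the shared fit gave a wide error (log2 difference -1.82, SE 1.23, adjusted p = 0.423). Fitted on the aged and young controls alone, the same difference passed (adjusted p = 0.016), as did 17.8% of all tested genes, against 4.04% with all 9 libraries. Lum, lumican, and Prelp, which binds the basement membrane proteoglycan perlecan, overlapped between the groups (log2 differences -0.44 and -0.75, adjusted p = 0.624 and 0.447). Under median-ratio scaling they were -0.11 and -0.41, and Lum was -0.17 without aged replicate 3.

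Ogn, osteoglycin, a class III member first isolated from bone, was at 53.61, 87.32 and 62.25 FPKM in aged controls and 79.09, 79.51 and 130.32 FPKM in young controls, with overlap (log2 difference -0.49, SE 0.28, adjusted p = 0.351). It was -0.15 under median-ratio scaling, -0.17 without immunoglobulin genes, -0.22 under quantile normalization and -0.25 without young replicate 3. Epyc, epiphycan of growth plate cartilage, was at 0.02, 0.00 and 0.00 FPKM in aged controls, about 1.33 reads in the first library and none in the other 2, against 0.52, 2.95 and 0.44 FPKM in young controls. All aged libraries were below all young ones for Epyc, but the values are near the pseudocount of 1 (log2 difference -1.03, SE 0.94, adjusted p = 0.561). Kera, keratocan, best known from the cornea, was listed at 0 in 3 aged controls and in 2 young controls, and at 0.60 FPKM in young replicate 3; it did not reach 1 FPKM in 3 libraries and was not tested. In all, 4 of the 9 tested members, Bgn, Omd, Fmod and Epyc, were lower in aged controls without overlap, while 37.4% of all tested genes were. None was higher without overlap, against 7.02% of all tested genes.

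**Figure D2:**
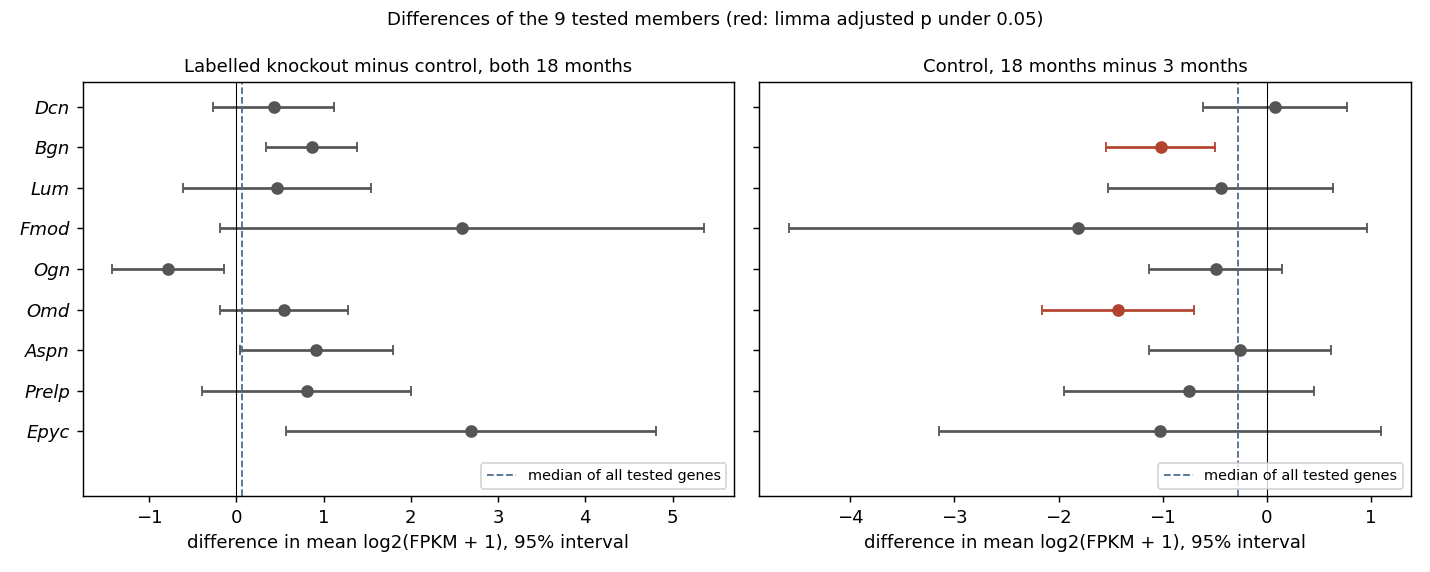
Log2 differences of the 9 tested members (horizontal axis, log2(FPKM + 1)), with 95% confidence intervals from limma, for labelled-knockout libraries minus aged controls (left) and aged minus young controls (right); red marks adjusted p under 0.05 and the dashed line the median of all tested genes. In aged against young controls the intervals of Bgn (-1.54 to -0.50) and Omd (-2.16 to -0.70) lie below 0; in labelled-knockout libraries against aged controls those of Fmod and Epyc are the widest.

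Labelled-knockout libraries and aged controls were of the same age and differ by the label of Thbs1 loss. With all libraries 0 of 9 members passed, while 3.48% of all tested genes did, 1.96% lower and 1.52% higher (235 lower and 182 higher; 352 and 178 after median-ratio scaling, 405 and 159 without immunoglobulin genes). At an unadjusted p under 0.05 there were 4 members, Bgn, Epyc and Aspn with positive differences and Ogn with a negative one, while 19.8% of all tested genes met that limit. The members' median difference was 0.81, against 0.07 over all tested genes. Replicates 1 and 3 of the labelled knockouts held much more Fmod, Epyc and Prelp than replicate 2. This comparison shares the aged controls with the one above, so opposite signs in the 2 are not independent.

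Fmod was at 42.88, 2.34 and 245.37 FPKM in labelled-knockout libraries, against 4.85, 3.27 and 5.62 FPKM in aged controls. Replicate 2 was below all aged controls and replicate 3 was the highest of the 9 libraries (log2 difference 2.59, SE 1.23, limma adjusted p = 0.281). Without replicate 3 the difference was 1.14 (adjusted p = 0.501). Epyc was at 7.62, 0.17 and 26.22 FPKM, about 508, 7.89 and 1440 reads, against 0.02, 0.00 and 0.00 FPKM in aged controls. The groups did not overlap, but replicate 2 held only a trace (log2 difference 2.69, SE 0.94, adjusted p = 0.159). Only labelled-knockout replicates 1 and 3 and young replicate 2 reached 1 FPKM of Epyc, so it passed the filter mainly through the group where it was high. Kera was at 0.17, 0.00 and 8.40 FPKM in labelled-knockout libraries, about 10.1 reads in replicate 1 and 411 in replicate 3, and was listed at 0 in the 3 aged controls. Prelp was at 515.38, 119.03 and 465.82 FPKM in labelled-knockout libraries, against 131.27, 229.32 and 176.92 FPKM in aged controls. Replicates 1 and 3 were above all aged controls and replicate 2 below all of them (log2 difference 0.81, SE 0.53, adjusted p = 0.439). It was 0.43 without replicate 1 and 0.50 without replicate 3.

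Without replicate 2, 4 members were higher in the labelled knockouts at adjusted p under 0.05 in limma: Fmod by 4.24 (adjusted p = 0.006), Epyc by 3.93 (0.00324), Prelp by 1.48 (0.018) and Bgn by 0.95 (0.0267) on the log2 scale. Leaving out this library also raised the share of all tested genes called to 16%. Summed chondrocyte markers, a list of 9 genes, were at 1207.89, 173.81 and 3210.81 FPKM in labelled-knockout libraries, against 41.68, 64.21 and 59.60 FPKM in aged controls. In the fit of all 9 libraries 6 of 8 tested markers were higher, against 1.52% of all tested genes. Matn1, a cartilage matrix marker of the list that failed the filter and was not tested, was at 10.99, 0 and 10.34 FPKM in labelled-knockout libraries. It was at 0 in aged controls. Col2a1, the main cartilage collagen, was at 667.87, 46.83 and 1665.46 FPKM in labelled-knockout libraries, against 8.28, 8.11 and 7.85 FPKM in aged controls. Col10a1, of the same list, was at 11.51, 40.3 and 115.1 FPKM, so replicate 2 was above replicate 1. Aged controls held 0.14, 0.88 and 0.89 FPKM of it. The other markers of the list were lowest in replicate 2 among the labelled knockouts. Replicates 1 and 3 were the highest of the 9 libraries in summed chondrocyte markers, Fmod, Epyc and Prelp, and replicate 3 in Kera. The chondrocyte sum of replicate 2 was also above all aged controls, while its Fmod and Prelp were below them. The part of cartilage cells in these values was not tested. Summed tendon and fibroblast markers were at 39.84, 147.11 and 153.40 FPKM in labelled-knockout libraries, with replicate 1 below all aged controls (44.34, 68.37 and 67.46 FPKM). Within the list Scx was at 0.67, 0.19 and 5.77 FPKM and Tnmd at 0.48, 2.84 and 10.07 FPKM, both highest in replicate 3. Aged controls held 0.34 to 0.51 and 0.11 to 0.43 FPKM of them. Mkx, at 5.57, 2.62 and 5.9 FPKM, did not exceed the aged maximum of 6.38 FPKM. Cilp and Clec3b were also highest in replicate 3 among the labelled knockouts. Highest in replicate 2 were Dpt at 1.44, 48.12 and 18.72 FPKM, Ly6c1 at 10.4, 33.48 and 25.04 FPKM and Pi16 at 0.15, 2.08 and 0.15 FPKM. Pi16 averaged 0.79 FPKM in labelled-knockout libraries, against 6.51 FPKM in aged controls. Of the 8 markers 0 passed. Epyc shares 1041 of its 2561 exon bases with the antisense transcript Gm10754, at 2.32, 0.07 and 12.33 FPKM in labelled-knockout libraries and 0 in aged controls. The kit does not mark strand, so reads of the overlap cannot be told apart.

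Ogn was the exception, with values of 32.81, 37.43 and 45.20 FPKM in labelled-knockout libraries, against 53.61, 87.32 and 62.25 FPKM in aged controls. All 3 labelled-knockout libraries, replicate 2 included, were below all aged controls, and the log2 difference was -0.78 (SE 0.28, 95% confidence interval -1.42 to -0.14, limma adjusted p = 0.170). Quantile normalization brought Ogn past the threshold (-1.03, adjusted p = 0.0417), with 4.66% of all tested genes called. Over 20 alternatives the Ogn difference ranged from -1.05 to -0.37, and in 18 of them it still did not pass. With single libraries left out it was between -0.93 and -0.59. Bgn was at 380.58, 329.57 and 406.34 FPKM in labelled-knockout libraries, against 168.82, 244.42 and 202.95 FPKM in aged controls. All labelled-knockout libraries were above all aged controls, with a log2 difference of 0.87 (SE 0.23, 95% confidence interval 0.34 to 1.39, adjusted p = 0.0820). Omd, with 5.15, 3.96 and 9.28 FPKM in labelled-knockout libraries, overlapped with aged controls at 2.71, 4.36 and 4.08 FPKM (log2 difference 0.54, SE 0.32, adjusted p = 0.387), and its difference was 0.25 without labelled-knockout replicate 3. Among the 9 tested members, 2 were higher without overlap, Bgn and Epyc, and 1 was lower, Ogn, against 16.6% and 6.54% of all tested genes. Other cell markers moved in the same libraries. Osteoblast markers summed to 4116.65, 1307.92 and 6293.69 FPKM in labelled-knockout libraries and 906.35, 1745.34 and 1205.51 FPKM in aged controls, with 3 of 8 higher. Ibsp, which was not called, made up most of the sum in replicate 2 and in aged controls. The called Bglap, Bglap2 and Sp7 were at 206.87, 260.35 and 15.65 FPKM in replicate 2, against aged maxima of 42.67, 34.33 and 6.85 FPKM. Replicate 2 was also above all aged controls for Runx2 and Phex, within their range for Dmp1 and below them for Ibsp and Alpl. Marrow reticular stroma markers summed to 8653.14, 7519.19 and 6270.03 FPKM in labelled-knockout libraries, all above the 4147.20, 6057.71 and 5049.79 FPKM of aged controls, with 0 of 8 passing. Cxcl12 and Adipoq made up most of this sum. The difference was positive for 7 of the 8 markers and negative for 1, Lepr, which averaged 344.7 FPKM against 432.9 FPKM in aged controls. Kitl hardly moved, at a mean of 72.13 FPKM against 70.28 FPKM. Pan-leukocyte markers summed to 64.18, 644.35 and 144.30 FPKM in labelled-knockout libraries and 1378.40, 1287.48 and 605.43 FPKM in aged controls, with 8 of 10 lower. Immunoglobulin shares also differed, and the part of all these in the levels of Bgn and Ogn was not tested.

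Aspn was at 4.75, 10.50 and 16.18 FPKM in labelled-knockout libraries, with replicate 1 inside the aged range of 3.03 to 6.18 FPKM (log2 difference 0.92, SE 0.39, adjusted p = 0.231) and 0.56 without replicate 3. Dcn, at 189.21, 242.01 and 351.73 FPKM in labelled-knockout libraries, overlapped with aged controls (log2 difference 0.43, SE 0.31, adjusted p = 0.480). It was 0.19 without labelled-knockout replicate 3 and 0.21 under quantile normalization. Lum, the class II member that shares a collagen site with fibromodulin, was at 110.42, 61.72 and 261.48 FPKM in labelled-knockout libraries, against 92.73, 121.00 and 59.74 FPKM in aged controls. Its difference of 0.47 (SE 0.48, adjusted p = 0.636) rested on replicate 3, without which it was -0.083.

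Labelled-knockout libraries were also set against young controls, which differ from them in age as well as label. None of the 9 tested members passed in limma, and 0.025% of all tested genes did (0.0167% lower and 0.00834% higher). An unadjusted p under 0.05 was met by 2 members, Ogn and Omd, and by 8.63% of all tested genes. Ogn was at 32.81, 37.43 and 45.20 FPKM in labelled-knockout libraries and 79.09, 79.51 and 130.32 FPKM in young controls, again without overlap (log2 difference -1.27, SE 0.28, 95% confidence interval -1.91 to -0.63, adjusted p = 0.293). It was the 1 member lower without overlap, against 13.4% of all tested genes, and no member was higher without overlap, against 4.08%. Omd, at 5.15, 3.96 and 9.28 FPKM in labelled-knockout libraries and 12.16, 8.47 and 14.90 FPKM in young controls, overlapped (log2 difference -0.89, adjusted p = 0.516). Bgn had a log2 difference of -0.15 (adjusted p = 0.827), which turned to 0.059 under median-ratio scaling. For Lum, Prelp and Dcn the differences were 0.023, 0.059 and 0.50, with adjusted p of at least 0.626, and for Fmod and Epyc they were 0.78 and 1.66, with adjusted p = 0.832 and 0.616. Aspn had 0.66 (adjusted p = 0.621). The members' median difference was 0.059, against -0.16 over all tested genes.

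The mixture of members within a library can be read without scaling between libraries. Ogn made up 3.22% ± 1.23 of the summed family in labelled-knockout libraries, 9.01% ± 0.395 in aged controls and 8.37% ± 2.43 in young controls (SD, n = 3 each). Dcn made up 21.3% ± 7.88 in labelled-knockout libraries, 25.5% ± 1.93 in aged controls and 15.6% ± 2.64 in young controls, while Bgn made up 30.8% ± 9.43, 27.7% ± 2.15 and 35.9% ± 2.06 in the same order of groups. Among the controls, the aged were higher than the young for Dcn and lower for Bgn in every library. Fmod took 5.66% ± 6.84 in labelled-knockout libraries, 0.651% ± 0.265 in aged controls and 1.71% ± 0.822 in young controls.

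The Ogn to Dcn ratio separated all 3 groups, at 0.173, 0.155 and 0.129 in labelled-knockout libraries, 0.320, 0.349 and 0.396 in aged controls and 0.527, 0.463 and 0.596 in young controls. It was lowest in the labelled knockouts, replicate 2 among them, and highest in the young. The Bgn to Dcn ratio was 2.01, 1.36 and 1.16 in labelled-knockout libraries, where replicate 3 overlapped with aged controls (1.01, 0.978 and 1.29); the log2 difference of 0.44 had an exact two-sided permutation p = 0.2. The Omd to Ogn ratio, for neighbours on chromosome 13, was 0.157, 0.106 and 0.205 in labelled-knockout libraries, 0.0506, 0.0499 and 0.0655 in aged controls and 0.154, 0.107 and 0.114 in young controls. Aged controls lay below all other libraries in that ratio. Both ratios with Ogn were chosen among several after values were known and are given with no test. The test of the Bgn to Dcn ratio was not planned.

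**Figure D3:**
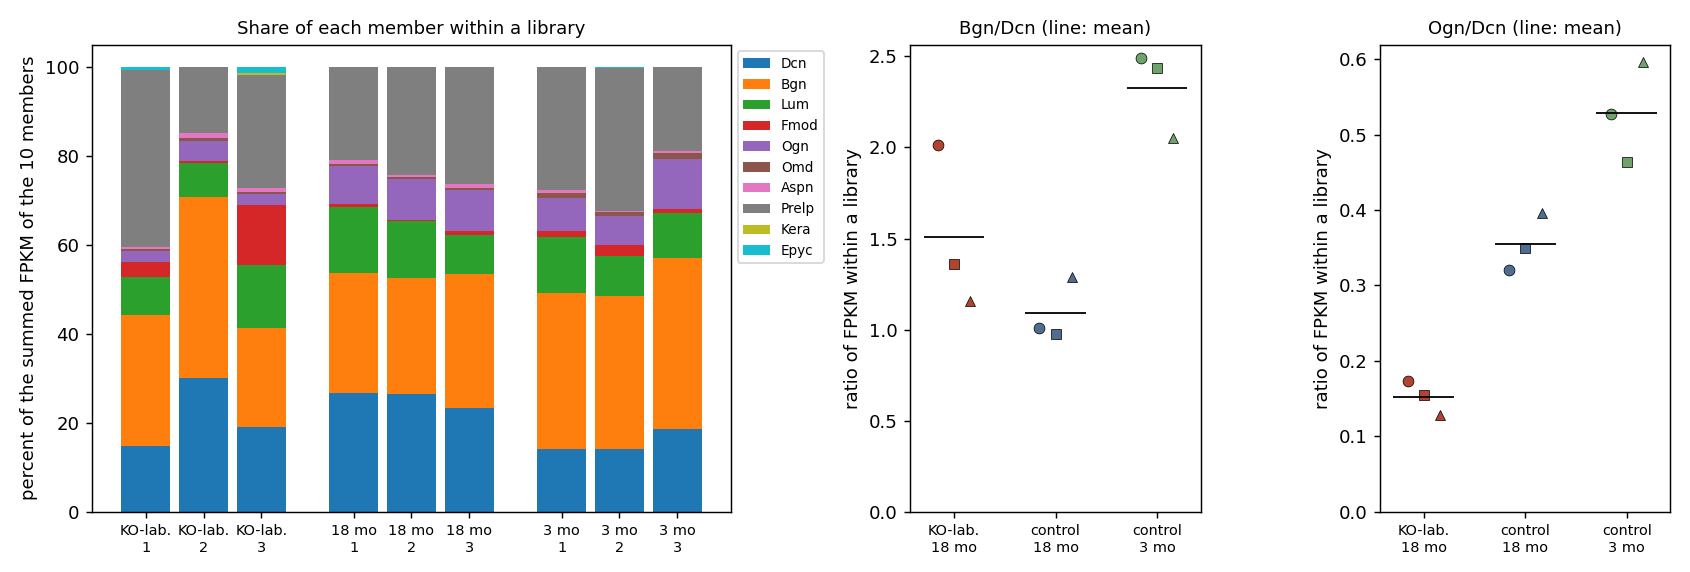
Left, percent of the summed FPKM of the 10 genes taken by each in every library; middle and right, the Bgn to Dcn and Ogn to Dcn ratios by library, with a line at the group mean (KO-lab., labelled knockout; 18 mo and 3 mo, controls). Ogn to Dcn lies at 0.129 to 0.173 in labelled-knockout libraries, 0.320 to 0.396 in aged controls and 0.463 to 0.596 in young controls.

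Of the 10 genes, 9 lie in 3 clusters of the family (GRCm38, GENCODE M21). Prelp and Fmod lie on chromosome 1 with Optc, within chr1:133897199-134048277; Dcn, Lum, Kera and Epyc on chromosome 10, within chr10:97479609-97682454; Aspn, Omd and Ogn on chromosome 13 with Ecm2, within chr13:49504810-49624501. Bgn stands alone at chrX:73483602-73495933. Singly, the genes run over chr1:133910304-133921414 (Prelp, minus strand), chr1:134037254-134048277 (Fmod), chr10:97479609-97518143 (Dcn), chr10:97565128-97572703 (Lum), chr10:97606879-97613692 (Kera), chr10:97644068-97682454 (Epyc), chr13:49544443-49567565 (Aspn), chr13:49582462-49592822 (Omd) and chr13:49608046-49624501 (Ogn), all on the plus strand but Prelp. On chromosome 10, Dcn ranged from 149.96 to 351.73 FPKM over the 9 libraries while Epyc, at the other end, ranged from 0.00 to 26.22 FPKM. On chromosome 13 the labelled-knockout libraries were lower than aged controls for Ogn in all 3 libraries, but Ecm2, which encodes a related matrix protein, was at 9.09, 5.42 and 9.75 FPKM in labelled-knockout libraries and 6.03, 8.01 and 9.07 FPKM in aged controls. Omd and Ogn lie within the span of Cenpp on the opposite strand with no shared exon bases, and Aspn shares 7 of 2354. Prelp shares 350 of 3615 exon bases with the antisense Gm15851.

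**Figure D4:**
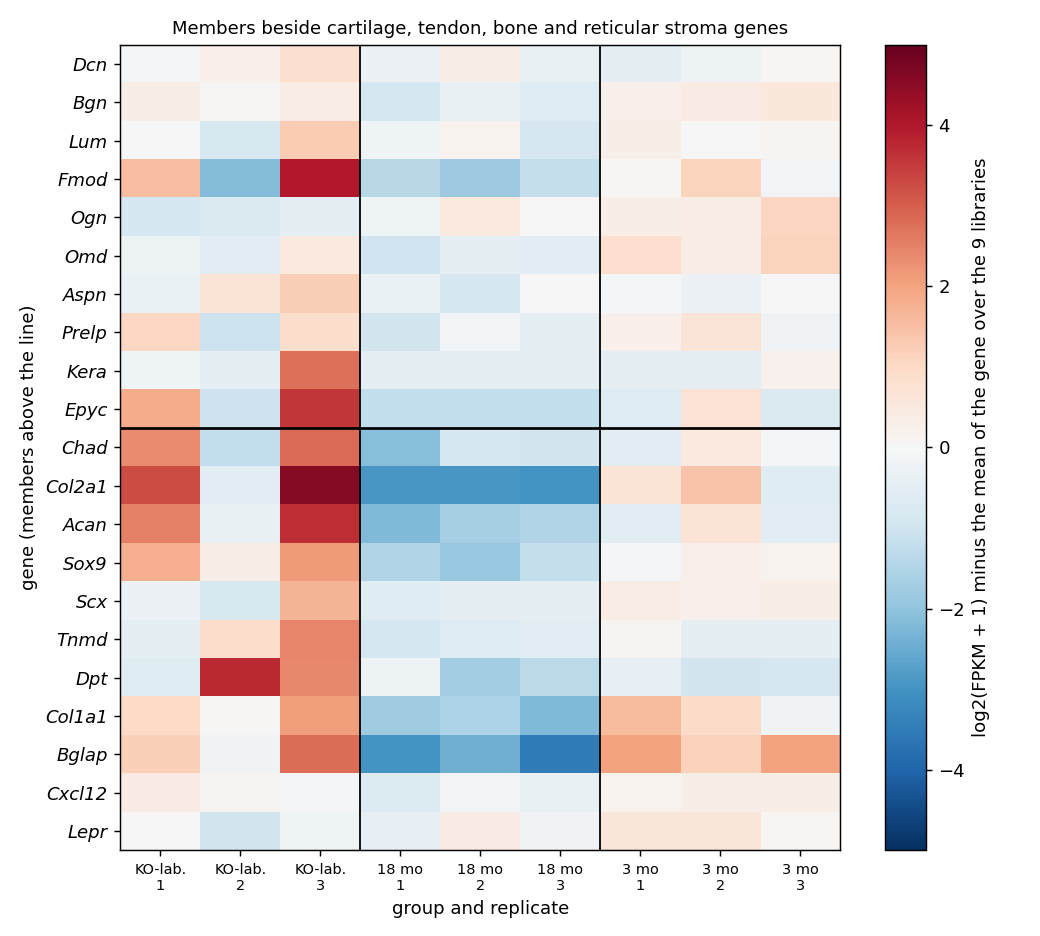
Log2(FPKM + 1) of the members and of a few named genes, each row centred on its mean over the 9 libraries, with libraries ordered labelled knockout, aged control, young control; colour runs from -5 to 5. Fmod and Epyc are high in labelled-knockout replicates 1 and 3 (42.88 and 245.37 FPKM, 7.62 and 26.22 FPKM), as is Col2a1.

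Genes that build, bind or cut these proteoglycans were read from lists by function. Of all tested genes 1.47% were called lower and 2.57% higher in aged controls, against which the lists' counts stand. In aged against young controls the fibrillar and associated collagens that the proteoglycans bind fell in 3 of 13 tested (Col1a1 by 2.63, Col1a2 by 1.94 and Col5a2 by 1.51 on the log2 scale), and their median was -1.26, against -0.28 over all genes. Col1a1, the main bone collagen, averaged 135 ± 30.7 FPKM in aged controls and 931 ± 510 FPKM in young controls (SD, n = 3 each). Bound growth factors and receptors fell in 3 of 17 (Bmp4 by 1.74, Ccn4 by 1.58, Tgfb2 by 1.27; median -0.50). Of the enzymes that assemble chondroitin and dermatan sulfate, 1 of 23 was lower, Chsy1, a chondroitin chain polymerase (-1.02, limma adjusted p = 0.0426; median -0.44). Among other matrix proteoglycans, 1 of 6 was higher, Srgn, the leukocyte proteoglycan serglycin (4.13, adjusted p = 0.0381), beside the higher leukocyte markers. Neither keratan sulfate enzymes (0 of 6), proteases (0 of 11) nor other family genes (0 of 6) held a call; the smallest p were those of the sulfotransferase Chst1 (3.63, adjusted p = 0.0530) and the galactosyltransferase B4galt4 (-0.78, 0.117), the proteases Ctsk (-0.88, 0.0730) and Mmp13 (-2.04, 0.0882), and the relatives Tsku (-0.79, 0.151) and Ecm2 (-0.63, 0.198). The 3 collagen calls became 0 without any one of the 6 control libraries, 2 without labelled-knockout replicate 1, 5 without replicate 3 and 12 without replicate 2. The share of all tested genes called moved as well, to between 0.0342% and 3.02% without a control library, 4.05% without labelled-knockout replicate 1, 2.85% without replicate 3 and 23.1% without replicate 2. With single libraries left out, the calls ranged from 0 to 8 for the growth factors and receptors, the chondroitin and dermatan sulfate enzymes and the proteases, from 0 to 4 for other family genes and from 0 to 3 for keratan sulfate enzymes and other matrix proteoglycans, the highest each without replicate 2.

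In labelled-knockout libraries against aged controls 7 of 13 collagens rose, Col1a1 by 2.90, Col1a2 by 2.12, Col2a1 by 5.37, Col3a1 by 1.46, Col5a2 by 1.503, Col6a3 by 1.44 and Col11a2 by 3.91 on the log2 scale, with a median of 1.46 against 0.07 over all genes. Of all tested genes 1.52% were called higher. Of the chondroitin and dermatan sulfate enzymes 2 of 23 were higher, the sulfotransferases Ust (1.08, limma adjusted p = 0.0389) and Chst14 (1.12, adjusted p = 0.0412). Growth factors and receptors were higher in 2 of 17, Ccn4 by 1.65 and Tgfb2 by 1.14. Other matrix proteoglycans were higher in 2 of 6, the cartilage link protein Hapln1 (3.82, adjusted p = 0.0268) and the perlecan gene Hspg2 (1.48, adjusted p = 0.0474). No keratan sulfate enzyme (0 of 6), protease (0 of 11) or other family gene (0 of 6) passed; the smallest p were those of Chst1 (-1.64, adjusted p = 0.332) and Chst2 (0.41, 0.385), of Ctsk (0.94, 0.0661) and Mmp2 (1.39, 0.0715), and of Chad (2.63, 0.161) and Chadl (1.38, 0.237). Chad, chondroadherin of cartilage and bone, was at 952.35, 78.62 and 1325.97 FPKM in labelled-knockout libraries, against 40.92, 103.27 and 96.47 FPKM in aged controls. The 7 collagen calls became 12 without labelled-knockout replicate 2, 1 without young replicate 3 and 0 without any other single library, while 16%, 0.844% and 0.111% to 3.17% of all tested genes were called. In the other lists the calls ranged from 0 to 8 for the chondroitin and dermatan sulfate enzymes and the proteases, from 0 to 4 for growth factors and receptors and other matrix proteoglycans, from 0 to 3 for other family genes and from 0 to 1 for keratan sulfate enzymes, again highest without replicate 2. Against young controls the labelled-knockout libraries gave 0 calls in each of the 7 lists.

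For each tested member the genes with the most similar pattern over the 9 libraries were found by the mean absolute difference of log2(FPKM + 1), each gene centred on its mean. The closest to Bgn was Fat1 (0.0549), followed by St3gal6 (0.0698) and Map1lc3a (0.0796), small beside the SD of 0.50 of Bgn itself. Prelp was nearest to Fkbp10 (0.115), which encodes a collagen-folding chaperone, and Aspn to Mef2c (0.148) and Pdpn (0.178). Epyc was nearest to Tnni2 (0.369) and the cartilage proteoglycan Acan (0.38), and Fmod to the matrix proteases Mmp9 (0.382) and Mmp3 (0.471), at larger distances, with SDs of 1.69 and 1.98. Ogn was nearest to Rbm26 and Bdp1 (0.141 each), Omd to Mcts2 (0.145), Dcn to Tmem100 (0.156) and Lum to Car8 (0.181). These 9 libraries share groups and scaling, so likeness is a description.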

How the data were processed

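RNA of sorted marrow stromal cells was measured in 9 libraries. The authors' deposited table holds FPKM per gene with 2 decimals, per the file headers and values, and all its 9 columns were used. Per the submitters' processing notes the tools were FastQC 0.11.5, STAR and edgeR, and the builds GRCm38 and mm10, with no roles given. Which annotation and counter were used is not given in the sources used here. Depth was estimated from the step between low FPKM values: 99.5% to 100% of 202 to 759 values a library were whole reads within 0.1. Floors of 3 reads cover counting error only. Gene models came from GENCODE M21 (98.7% of genes matched) and promoter windows from RefSeq.

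Groups came from the sample titles. limma 3.58.1 (R 4.3.3) was run with an intensity trend on log2(FPKM + 1), a scale that understates changes of low genes. It covered the 11988 genes that reached 1 FPKM in 3 or more libraries, in a single model of the 3 group means without covariates. Benjamini-Hochberg adjustment ran over all genes of a comparison, with 0.05 as threshold. The procedure was checked on simulated data. Thbs1 and, without a plan, the Bgn to Dcn ratio were tested by exact permutation. Members and lists were chosen with earlier results of these data known. The text names every member; of each related list, the genes that passed or, where none did, the 2 with the smallest p; and some of the 3 genes most like each member. Chad, Col2a1, Col10a1, Matn1, Ecm2 and Gm10754 are given with values as cartilage genes or neighbours, and some single markers beside the sum of their list. Results were recomputed with a pseudocount of 0.1, without the filter, with 5 FPKM as the minimum, with median-ratio or quantile scaling, without immunoglobulin genes, without the trend, with array weights, on the compared groups alone, with a replicate block, without each library, and with median-ratio scaling without labelled-knockout replicate 2. Leaving out libraries for the Bgn to Dcn ratio was added after values were seen. Python 3.11.15, pandas 2.3.3, numpy 2.4.6 and matplotlib 3.10.9 were used.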

Additional observations from a re-analysis of the deposited data

How the results depend on the processing

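Of 528 recomputed member differences, 462 kept their direction and side of the threshold, 25 lost it, 28 gained it and 13 changed sign. Most of the 528 belong to differences that were not called and stayed so. All 25 losses fell on the 2 calls by age: Bgn lost its call in 14 of 20 alternatives and Omd in 11 of 20. The members called in aged against young controls, 2 as reported, numbered 0 with no filter, with median-ratio size factors or without immunoglobulin genes, 1 under quantile normalization, 3 with only the groups compared (Fmod also; 17.8% of all genes), 1 with median-ratio scaling without labelled-knockout replicate 2, 6 under array weights, and 0 to 2 with single libraries left out. In labelled-knockout libraries against aged controls, 0 as reported, they numbered 1 under quantile normalization (Ogn), 8 under array weights, 4 with median-ratio scaling without replicate 2 (Ogn lower; Epyc, Fmod and Prelp higher), and 0 to 4 with single libraries left out. Against young controls, 0 as reported, they numbered 6 under array weights. The array weights fit did not converge and called 61.9%, 52.9% and 11.8% of all genes in the 3 comparisons.

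With the replicate number as a block, 0 members were called in aged against young controls, neither Bgn nor Omd. In their deviations from the group means, same-numbered libraries correlated at -0.288 to 0.302 and differently numbered ones at -0.409 to 0.369. Deviations from means of 3 libraries depend on one another, so these values cannot decide whether the numbers pair libraries.

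Signs turned in aged against young controls for Dcn (-0.047 without young replicate 1; range with single libraries left out -0.13 to 0.22) and Aspn (0.029 under median-ratio scaling, 0.030 with labelled-knockout replicate 2 also left out, 0.015 without immunoglobulin genes). With single libraries left out, the range in labelled-knockout libraries against aged controls was -0.083 to 0.95 for Lum and -0.33 to 0.094 for Thbs1. Against young controls it was -0.53 to 0.51 for Lum (-0.056 without young replicate 2), -0.67 to 2.43 for Fmod and -0.32 to 0.74 for Prelp (-0.15 without young replicate 3, -0.24 without labelled-knockout replicate 3), and Bgn was 0.059 under median-ratio scaling. Members that kept their sign also moved with single libraries left out: -0.45 to -0.034 for Aspn by age; in labelled-knockout libraries against aged controls, 1.14 to 4.24 for Fmod, 0.43 to 1.48 for Prelp, 0.19 to 0.64 for Dcn, 0.25 to 0.77 for Omd and 0.56 to 1.35 for Aspn, and against young controls 0.26 to 0.71 for Dcn and 0.30 to 1.09 for Aspn (1.41 to 2.90 for Epyc). Epyc was tested in 16 of the 20 alternatives. Without labelled-knockout replicate 1 or 3 or young replicate 2 it failed the filter, so its ranges leave out the removal of these libraries. With a pseudocount of 0.1 Epyc differed by -3.24 by age and by 5.16 between the groups of 18 months. The log2 Bgn to Dcn ratio difference of 0.44 ranged from 0.21 to 0.61. Causes were not tested. Kera in the libraries that list it at 0, and Epyc in aged controls, are at the limit of depth. Kera in labelled-knockout replicate 3, at about 411 reads, is not.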
